A study of Mus musculus and Homo sapiens with 43 samples.

Results

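Wild-type (WT) mouse embryonic stem cells of the E14 line were grown as aggregates without the factors that hold them undifferentiated, and the transcripts of aggregates given retinoic acid were compared with those of aggregates that were not. The treated group, labelled NPC for neural progenitor cells, received 5 µM retinoic acid, from day 4 to day 8 according to the protocol text of the study's later samples. The untreated group was the day 8 embryoid bodies (EB day 8). Both groups share the genotype and the line by their labels. Both had a medium with serum but without LIF and the 2 kinase inhibitors used for the stem cells. Each group had 2 libraries, and nothing in the labels ties them to separate cultures, so the spread behind every p-value may be technical. Levels are in TPM, a unit that corrects read numbers for transcript length and scales every library to the same total, and that keeps no record of sequencing depth. A gene was compared if it reached 1 TPM in at least 2 of the 4 libraries, which held for 15485 of the 35245 genes of the table. The same comparison in cells labelled Pcgf2 KO, which lack a subunit of Polycomb repressive complex 1 by their label, is given beside it, because no library is shared between the 2 comparisons.

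One difference between the WT groups was not in the labels and is given before any result. Transcripts of the Y chromosome were present in both untreated libraries and low in both treated ones. Eif2s3y, a translation factor gene on the Y chromosome, stood at 50.4 and 64.7 TPM in EB day 8 WT and at 1.74 and 1.42 TPM in NPC WT. The difference of −4.50 ± 0.20 on the log2(TPM + 1) scale (with its standard error) had an adjusted p of 5.7e-09 with limma, a linear model fitted to all genes with Benjamini-Hochberg adjustment. Ddx3y, an RNA helicase gene, stood at 11.3 and 12 TPM without and 1.02 and 0.736 TPM with retinoic acid, and Uty, a histone demethylase gene, at 9.39 and 10.8 TPM against 1.33 and 1.75 TPM. All 3 compared Y-linked genes fell, where 22.0% of all compared genes did, and Kdm5d was at 1.11 TPM or less in all 4 libraries and not tested. Other WT libraries resembled the treated group, with Eif2s3y at 0.422 and 0.447 TPM in ESC and 1.46 and 2.78 TPM in day 3 aggregates. Both libraries labelled NPC Pcgf2 KO (56.7 and 48.9 TPM) and both labelled EB day 8 Pcgf2 KO (76.1 and 65.7 TPM) carried the transcript. In WT, retinoic acid and this difference in Y-linked transcripts cannot be told apart, and no untreated day 8 WT library without it was analysed here. In the Pcgf2 KO pair both groups carry Y-linked transcripts.

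Retinoic acid is made from vitamin A inside cells and acts through nuclear receptors, the retinoic acid receptors (RAR) paired with retinoid X receptors (RXR), which sit on DNA and switch from holding genes off to activating them once the ligand binds. Its classical targets include genes for its own breakdown and storage and the Hox genes, which lie in 4 clusters and set position along the trunk. In the embryo it patterns the hindbrain and spinal cord, and added to stem cell aggregates it is a standard way to obtain neural cells.

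The receptor pair binds DNA at a direct repeat of a short core sequence. Promoters from RefSeq (GRCm38.p6, 250 bases before to 50 after each start) were searched on both strands for 2 copies of a core, AGGTCA or AGTTCA or GGGTCA or GGTTCA, with 5 bases between them (DR5). The pattern stood in 32 of 32851 promoters (0.0974%). Rarb encodes a retinoic acid receptor and Cyp26a1 an enzyme that degrades retinoic acid. Their promoters are shown because both genes rose and both hold the repeat near the start, with the 2 cores in capitals.
Rarb, chr14:16575427-16575726, minus strand: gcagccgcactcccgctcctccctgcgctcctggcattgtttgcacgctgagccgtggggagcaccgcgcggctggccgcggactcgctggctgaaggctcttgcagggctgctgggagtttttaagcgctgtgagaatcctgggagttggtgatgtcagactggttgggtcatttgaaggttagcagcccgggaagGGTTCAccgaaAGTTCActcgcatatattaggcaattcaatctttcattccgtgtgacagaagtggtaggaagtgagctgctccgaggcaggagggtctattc
Cyp26a1, chr19:37697558-37697857, plus strand: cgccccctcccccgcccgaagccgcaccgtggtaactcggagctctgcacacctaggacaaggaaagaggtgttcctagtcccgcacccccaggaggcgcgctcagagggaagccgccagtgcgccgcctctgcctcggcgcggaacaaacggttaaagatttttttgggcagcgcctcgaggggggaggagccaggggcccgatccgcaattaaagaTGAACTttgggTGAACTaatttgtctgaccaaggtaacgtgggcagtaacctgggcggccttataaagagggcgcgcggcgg
The repeat lies 53 to 37 bases before the start in Rarb, on the strand of the gene, and 32 to 16 bases before it in Cyp26a1, on the opposite strand. Of the 8 compared genes with the repeat, 6 were called higher in NPC WT and 1 lower at an adjusted p under 0.05, where over all compared genes 43.4% were called higher and 22.0% lower. Among the 10895 compared genes with a promoter in the table, 5077 were higher and 2308 lower. The other 4 genes called higher were Hbb-y, an embryonic globin (log2 difference 1.13), Ppbp, a platelet chemokine (1.56), Syndig1 (0.84) and a predicted gene. Blvrb, a biliverdin reductase, was the gene called lower (−1.98). These 8 were listed after their values were seen, and a match of letters is a description of the window and not a site of binding. The same cores were also searched with other spacings, which the receptors are known to use as well. With 2 bases between them (DR2) they stood in 88 promoters (0.268%), and of 12 compared genes 5 were called higher and 3 lower. With 1 base (DR1) they stood in 73 promoters (0.222%), and of 32 compared genes 8 were called higher and 6 lower.

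Of the 15485 genes, 6725 (43.4%) were called higher in NPC WT and 3412 (22.0%) lower. Below, a gene is said to rise or fall only where it was called. A gene under 1 TPM in 1 group could pass the filter through the other group alone, which set its direction in advance. The counts for gene lists include such genes. At a difference of at least 2-fold there were 2094 (13.5%) higher and 1434 (9.26%) lower, and at 16-fold 72 higher and 57 lower. All differences are on the log2(TPM + 1) scale, given ± their standard error, and that scale understates the change of genes near 0. The median over all compared genes was 0.22. The balance depended on scaling, since 66.3% of calls were higher with the values as deposited. That share was 48.8% after median-of-ratios scaling, which moved the median to −0.01, and 53.2% after quantile normalization, which moved it to 0.045. The 4 libraries had 14520 to 14950 genes at 1 TPM or more. In bulk samples such as these, fewer cells of a type and less RNA per cell cannot be told apart.

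The labelled identity was checked against marker genes. All 8 neural progenitor markers rose, and their summed level was 519.5 to 664.5 TPM in NPC WT against 70.3 to 70.6 TPM in EB day 8 WT. All 5 neuron markers rose too, summing to 242 to 344 TPM with and 18.3 to 19.8 TPM without retinoic acid. Markers of other cells were not absent from the treated aggregates. The 5 primitive erythroid markers summed to 564 to 586 TPM in NPC WT and 4785 to 5438 TPM in EB day 8 WT, and 4 of them fell while 1 rose. All 4 fibroblast markers fell, summing to 167 to 195 TPM in NPC WT and 1030 to 1080 TPM in EB day 8 WT. Of 3 compared cardiac markers 2 rose and 1 fell, with sums of 20.2 to 21.6 TPM against 8.03 to 8.27 TPM. Endothelial markers summed to 49.0 to 67.5 TPM with and 90.4 to 94.1 TPM without retinoic acid, where 2 of 4 fell and 2 were not called. Yolk sac endoderm markers fell in 5 of 5, to sums of 13.1 to 16.1 TPM against 677 to 683 TPM. Pluripotent cell markers fell in 4 of 4, to 4.52 to 6.72 TPM against 115 to 134 TPM. No marker of these lists was at 0 in both libraries of either group.

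The 12 largest rises and 12 largest falls were taken among called genes whose mean was at least 5 TPM in a group and whose 2 groups did not overlap. They give the scale of the differences between the groups. Cyp26b1, which degrades retinoic acid (chromosome 6, 84571414 to 84593908 in GRCm38), was the most abundant of the 12 that rose, at 470.0 and 473 TPM in NPC WT and 2.94 and 2.88 TPM in EB day 8 WT. Barx1, a homeobox gene of embryonic mesenchyme, stood at 211 and 159.8 TPM against 2.09 and 1.36 TPM. For both genes the treated libraries lay far above the untreated ones, with differences of 6.92 ± 0.11 and 6.10 ± 0.23 (adjusted p = 4.9e-12 and 1.5e-09). Dbx1, a homeobox gene of interneuron progenitors, was listed at 0 in both untreated libraries and at 50.4 and 85.5 TPM in the treated ones. The remaining rises were 5 Hox genes (Hoxa5, Hoxa4, Hoxa3, Hoxb9 and Hoxc5), the orphan receptor gene Nr2f1, the Notch effector Hes5, the proneural factor Neurog1 and Sst, which encodes the peptide somatostatin. Sst reached 58.2 and 69.2 TPM from 0.424 and 0 TPM.

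Of the 12 largest falls, Spink1, a trypsin inhibitor gene, stood at 875 and 687 TPM in EB day 8 WT and at 0.454 and 0 TPM in NPC WT. Apoc2, an apolipoprotein gene, stood at 316 and 288 TPM against 0.158 and 0.161 TPM. Each was abundant in both untreated libraries and under 0.5 TPM in both treated ones, with differences of −9.33 ± 0.19 and −8.03 ± 0.17 (adjusted p = 1.5e-11 and 2.4e-11). Car4, which encodes a carbonic anhydrase, fell from 391 and 395 to 3.24 and 3.92 TPM. Srgn, a proteoglycan of blood cell granules, fell from 125 and 144 to 1.94 and 1.44 TPM, and Acta2, smooth muscle actin, from 443 and 445 to 7.11 and 9.49 TPM. The other 7 were the lysosomal protease gene Ctsh, Hand1, Apob, Postn, Rbp4, Cubn and Apoa2, with differences between −7.93 for Hand1 and −5.55 for Apoa2.

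**Figure D1:**
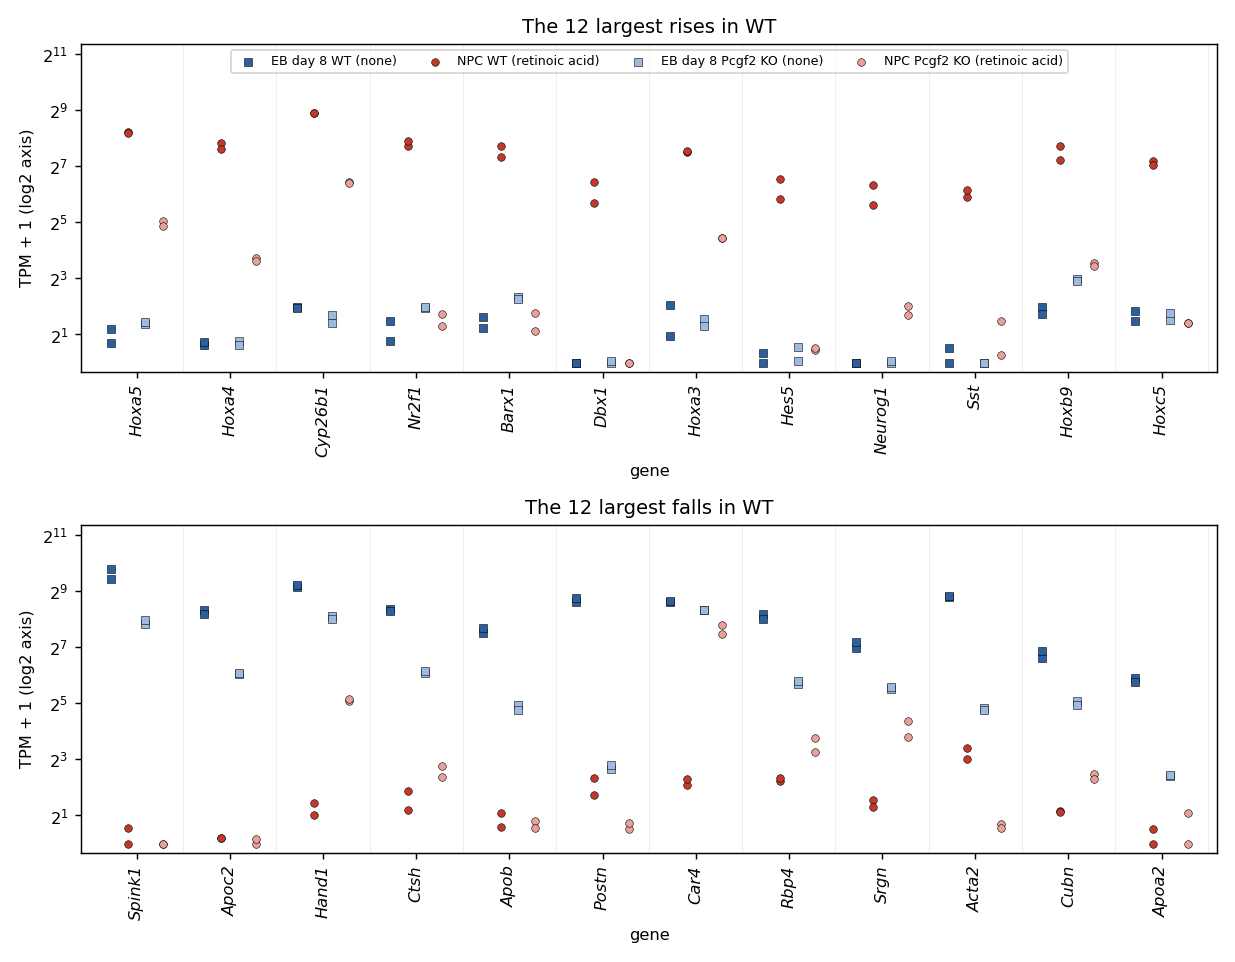
TPM + 1 on a log2 axis for the 12 largest rises and 12 largest falls of the WT comparison, with each library as a point, in WT (dark) and in libraries labelled Pcgf2 KO (pale). In WT the treated and untreated points are far apart for every gene shown, while in Pcgf2 KO the treated and untreated points for Nr2f1, Dbx1, Hes5 and Hoxc5 lie near each other at the bottom of the panel.

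Genes that handle retinoids inside the cell changed in 13 of the 14 compared, 11 higher and 2 lower, with a median difference of 2.81. A further 4 members, Lrat, Dhrs9, Adh7 and Aldh1a3, did not pass the filter on low values, so the 14 are not the whole list of 18. All 3 enzymes of retinoic acid breakdown rose. Besides Cyp26b1, Cyp26a1 stood at 83.1 and 106 TPM against 25.8 and 26.4 TPM and Cyp26c1 at 2.48 and 2.69 TPM against 0.594 and 0.529 TPM. Their differences were 1.81 ± 0.23 and 1.20 ± 0.11 (adjusted p = 2.4e-05 and 2.0e-06), smaller than for Cyp26b1, and Cyp26a1 alone of the 3 was above 20 TPM without added retinoic acid.

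Genes of uptake and binding rose as well. Stra6, the membrane receptor that takes up retinol, stood at 75.6 and 66.1 TPM with and 1.57 and 1.33 TPM without retinoic acid. Dhrs3, a reductase that turns retinal back into retinol, stood at 291 and 239 TPM against 8.23 and 8.52 TPM. In each the lower treated library was many times above the higher untreated one, with differences of 4.87 ± 0.14 and 4.82 ± 0.11. The binding proteins that carry retinoic acid inside the cell rose from a higher base. Crabp2, which delivers the ligand to receptors, rose from 36.7 and 36.2 TPM to 393 and 556 TPM, and Crabp1 from 25.6 and 25.4 TPM to 198 and 250.5 TPM. Lrat, which esterifies retinol for storage, stood at 1.91 and 0.963 TPM against 0.0791 and 0.101 TPM and was not tested.

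Synthesis genes were divided. Aldh1a2, the main retinoic acid-forming dehydrogenase of the early embryo, stood at 31.6 and 32.3 TPM in NPC WT and 1.01 and 0.798 TPM in EB day 8 WT. Aldh1a1, a related enzyme, stood at 6.75 and 8.27 TPM against 0.186 and 0.776 TPM. Both were higher in each treated library, with differences of 4.12 ± 0.14 and 2.55 ± 0.19 (adjusted p = 7.8e-10 and 3.9e-07). Aldh1a3 stood at 0.784 and 0.725 TPM against 0.503 and 1.5 TPM, with overlapping groups. Rdh10, which makes retinal from retinol, differed by 0.34 ± 0.13 (adjusted p = 0.035), a call that either other scaling or leaving out NPC WT replicate 1 or EB day 8 WT replicate 1 ended. Rdh11, a retinal reductase, fell by little (−0.32 ± 0.09, adjusted p = 0.009), a call that ended without NPC WT replicate 2. Adh5 was abundant in all 4 libraries (176 and 177 against 169 and 161 TPM) and was not called. Rbp4, the retinol carrier that liver and yolk sac secrete, was the one large fall, from 285 and 256 TPM to 3.74 and 4.07 TPM.

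Among receptor genes 13 of 15 compared rose and 2 fell, with a median of 1.03. Rarb (chromosome 14, 16430839 to 17082331) stood at 82.1 and 85 TPM with retinoic acid and 1.68 and 1.84 TPM without, the widest gap of the 3 RAR genes (4.94 ± 0.14, adjusted p = 1.9e-10). Rara stood at 75.3 and 78.2 TPM against 30.5 and 31.9 TPM, a rise of 1.27 ± 0.07. Rarg went the other way, from 59.5 and 55.3 TPM to 30.2 and 25.6 TPM (−1.02 ± 0.09, adjusted p = 1.7e-06). In untreated aggregates Rarg was therefore the RAR gene with the highest TPM, and in treated ones it had the lowest, while Rara and Rarb were near each other. Their partners Rxra (39.1 and 36.2 against 15.9 and 14.3 TPM) and Rxrb (61.7 and 63.7 against 41.5 and 38.4 TPM) rose, and Rxrg stayed at or below 1.04 TPM and was not tested.

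The COUP-TF orphan receptor genes rose together. Nr2f2 stood at 228 and 174 TPM against 6.87 and 9.33 TPM, and Nr2f6 at 89.6 and 113 TPM against 34.6 and 26 TPM, differences of 4.47 ± 0.20 and 1.71 ± 0.14. Nr2f1 stood at 208 and 237 TPM against 0.704 and 1.78 TPM. Nr6a1, an orphan receptor of early embryos, fell from 29.5 and 32.9 TPM to 18.5 and 21.7 TPM. Cofactor genes rose by less. The corepressor gene Ncor1 rose by 1.03 ± 0.12, and the coactivator genes Ncoa1, Ncoa2 and Ncoa3 by 0.77, 0.88 and 0.55. Nrip1, a corepressor that binds liganded receptors, rose by 2.14 ± 0.20, from 5.3 and 6.02 to 32.1 and 25 TPM.

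**Figure D2:**
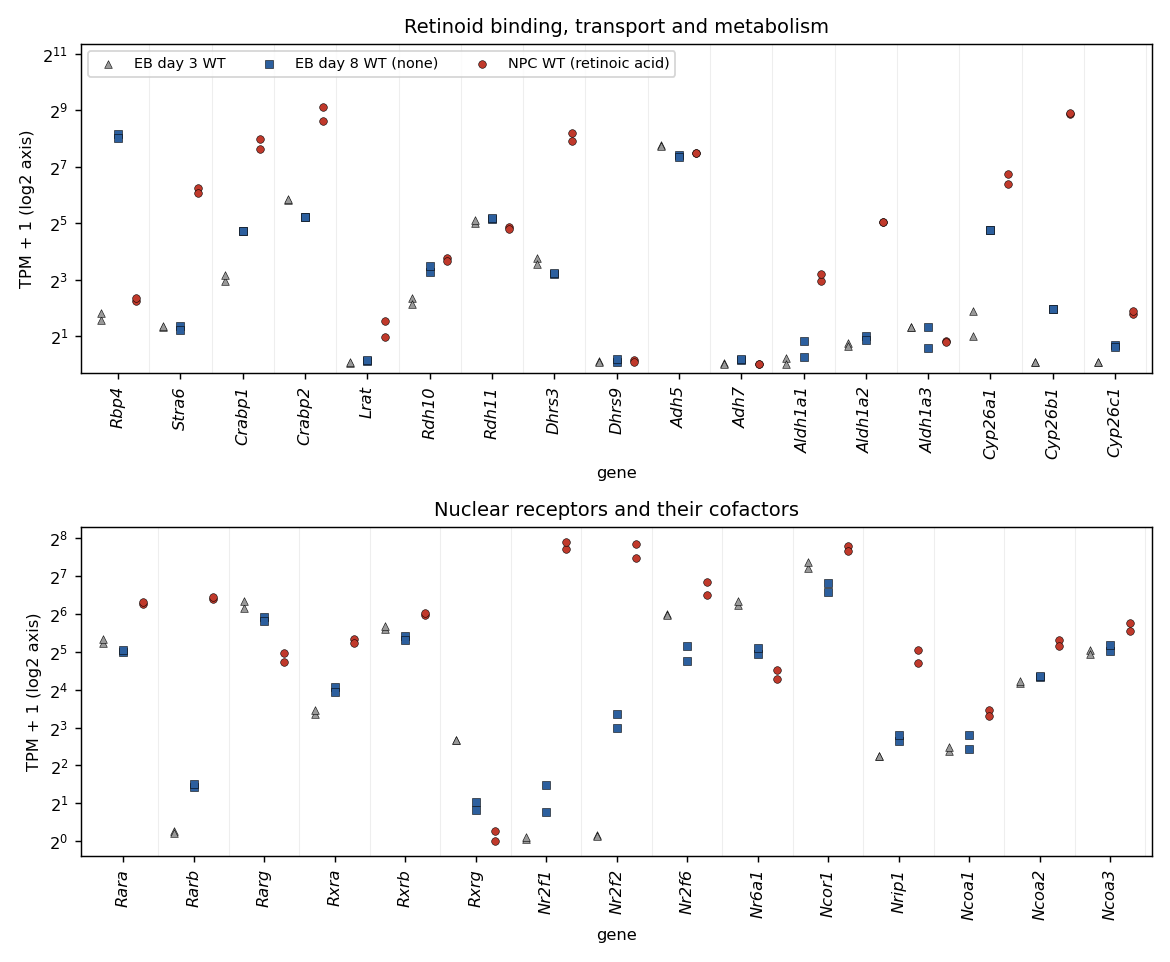
TPM + 1 on a log2 axis for 17 genes of retinoid handling (top) and for 15 nuclear receptors and cofactors (bottom), with each library of day 3 aggregates, EB day 8 WT and NPC WT as a point. Treated points lie above both other groups for Stra6, Dhrs3, Aldh1a2, Cyp26b1, Rarb and Nr2f1, and below EB day 8 for Rbp4 and Rarg.

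Other genes known to respond to retinoic acid were called higher in 14 of 15 and lower in 1 (median 1.44). Meis1, a Hox cofactor, stood at 101 and 89.4 TPM against 9.2 and 10.4 TPM, and Tshz1, a zinc finger gene of the trunk, at 111 and 110.3 TPM against 14.1 and 15.6 TPM. Gbx2, which marks the anterior hindbrain, stood at 9.13 and 13.3 TPM against 0.947 and 0.691 TPM. Stra8, the meiosis gene of germ cells, stood at 6.76 and 14.4 TPM against 0.122 and 0.315 TPM. All 4 were higher in both treated libraries, by 3.15 ± 0.14, 2.81 ± 0.15, 2.73 ± 0.15 and 3.17 ± 0.26. Egr2, which marks hindbrain segments, was at or under 0.198 TPM in all 4 libraries.

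The Hox genes divided by their place in the clusters. Of the 39 genes, 35 were compared, and 23 were called higher, 10 lower and 2 neither. Among paralogues 1 to 8, 21 of 23 rose and 1 fell, and among paralogues 9 to 13, 2 of 12 compared rose and 9 fell. The 39 genes summed to 2521 and 2867 TPM in NPC WT against 178 and 187 TPM in EB day 8 WT, and the gene with the highest TPM was Hoxa5 in each treated library and Hoxa10 in each untreated one. The division into these 2 sets of paralogues was made after the values were seen. Antisense and overlapping transcripts are common in these clusters and could not be separated in these values.

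On chromosome 6, in the HoxA cluster, 7 genes rose and the 4 from Hoxa9 to Hoxa13 fell. Hoxa2, a hindbrain segment gene, stood at 40.2 and 37.6 TPM against 0.255 and 0.715 TPM, and Hoxa4 at 223 and 193 TPM against 0.534 and 0.659 TPM. The treated libraries were higher in all of these, with the widest gap at Hoxa5 (7.25 ± 0.15) and narrower ones at Hoxa6 (4.63 ± 0.17) and Hoxa7 (3.63 ± 0.19). Beyond that the order turned. Hoxa9 stood at 5.69 and 9.02 TPM against 10.6 and 12.6 TPM (−0.61 ± 0.19, adjusted p = 0.014, a call that ended without NPC WT replicate 1 or EB day 8 WT replicate 2). Hoxa10, Hoxa11 and Hoxa13 fell further (−2.13 ± 0.14, −2.64 ± 0.15 and −2.65 ± 0.14), and Hoxa13 stood at 1.17 and 0.652 TPM against 10.2 and 11.6 TPM.

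In the HoxB cluster all 10 genes rose, with a median of 4.63. Hoxb1, which marks the fourth hindbrain segment, stood at 42.3 and 38.1 TPM against 0.122 and 0.508 TPM. Hoxb4 stood at 139.6 and 168 TPM against 4.18 and 4.68 TPM and Hoxb9 at 149 and 209.8 TPM against 2.97 and 2.3 TPM. No HoxB gene had overlapping groups, and Hoxb9 rose by 5.62 ± 0.21 where Hoxa9 fell. The rises were smaller at Hoxb6 (2.82 ± 0.17) and at Hoxb13 (2.67 ± 0.13), the last gene, which reached 7.62 and 5.82 TPM from 0.259 and 0.154 TPM. The others, Hoxb2, Hoxb3, Hoxb5, Hoxb7 and Hoxb8, rose by 4.55, 5.08, 4.71, 3.49 and 4.49.

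In the HoxC cluster 3 of the 6 compared genes rose and 1 fell, and in HoxD 3 of 8 rose and 5 fell. The HoxC counts are near the shares of 43.4% and 22.0% over all compared genes. Hoxc4 stood at 155 and 153 TPM against 3.85 and 3.21 TPM, with Hoxc5 and Hoxc6 also higher (5.46 ± 0.14 and 2.85 ± 0.13). Hoxc8 (7.56 and 9.66 against 6.7 and 7.8 TPM) and Hoxc9 (1.82 and 2.35 against 3.06 and 2.83 TPM) were not called, although Hoxc9 was called lower under both other scalings. Hoxc10 fell to 0.0368 and 0.226 TPM from 4.04 and 4.9 TPM, and Hoxc11, Hoxc12 and Hoxc13 were too low to be tested. In HoxD, Hoxd3 stood at 57.9 and 82.6 TPM against 1.4 and 1.46 TPM and Hoxd4 at 72 and 109.5 TPM against 5.44 and 5.67 TPM. Hoxd8 rose by less (0.62 ± 0.17), a call lost under both other scalings and without replicate 2 of either group. Hoxd1 was the exception among front genes and fell from 8.4 and 7.46 TPM to 3.41 and 3.79 TPM (−0.96 ± 0.12, adjusted p = 1.8e-05). Hoxd9, Hoxd10, Hoxd11 and Hoxd13 fell, with differences of −1.81, −2.10, −1.35 and −1.74, and Hoxd12 was not tested. The caudal gene Cdx2, which drives posterior Hox genes in the tail, fell with them, from 36.8 and 34.9 TPM to 6.84 and 4.82 TPM (−2.45 ± 0.19), while Cdx1 and Cdx4 were under 0.5 TPM in all 4 libraries.

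**Figure D3:**
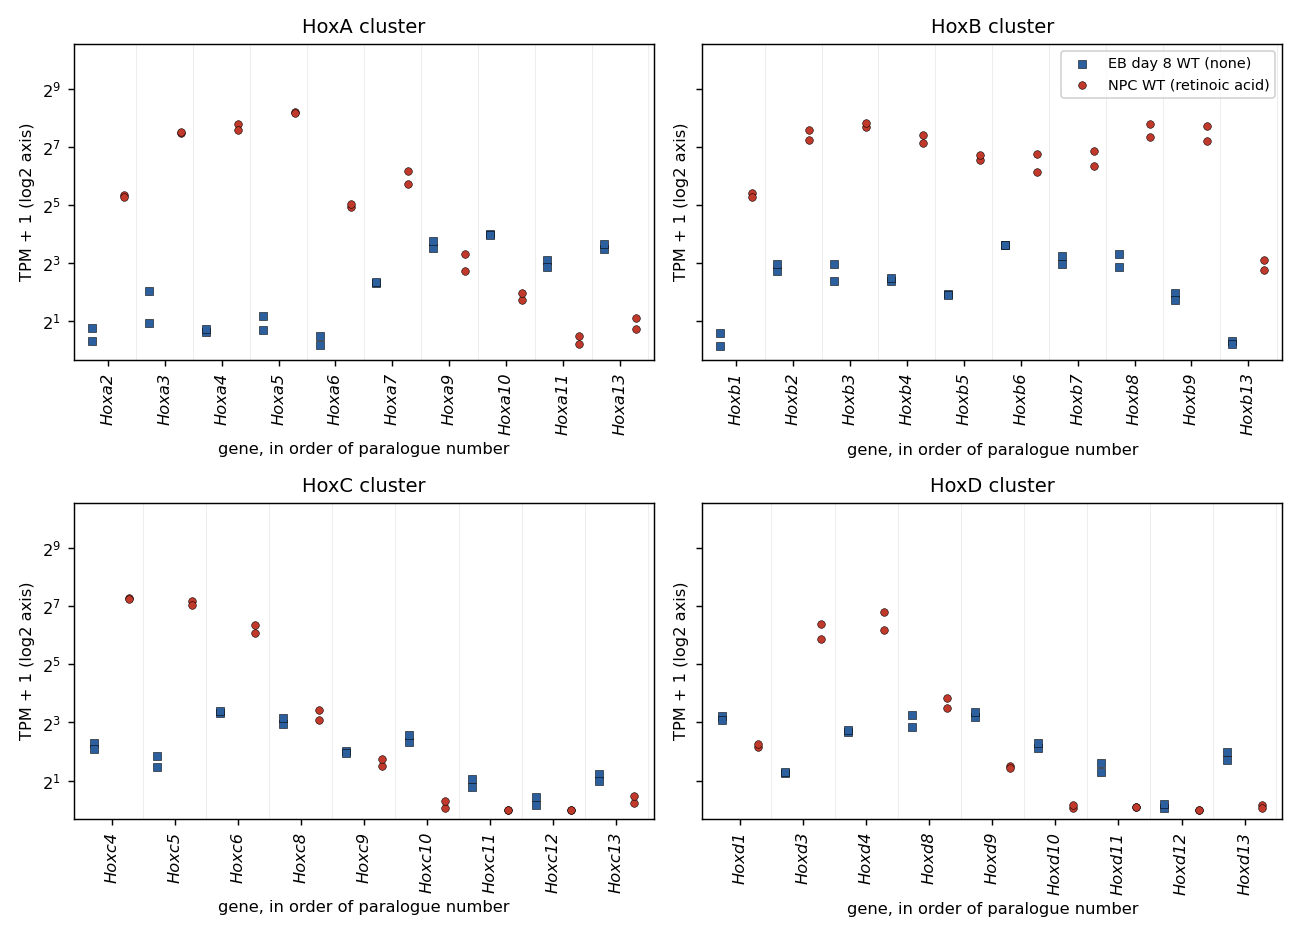
TPM + 1 on a log2 axis for 38 genes of the 4 Hox clusters in order of paralogue number, with each library of NPC WT (circles) and EB day 8 WT (squares) as a point. Circles lie above squares up to paralogue 7 in HoxA and through the whole HoxB cluster, and below them from Hoxa9, Hoxc9 and Hoxd9 onward.

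Neural progenitor genes rose in 20 of 23 and fell in 1 (median 2.31). Pax6, a regulator of neural progenitors, stood at 52.5 and 73.9 TPM against 0.849 and 0.204 TPM. Pou3f2 and Pou3f3, POU factors of the neural tube, stood at 24.5 and 35.8 TPM against 0.0252 and 0.0311 TPM and at 17.7 and 24.7 TPM against 0.255 and 0.22 TPM. The treated libraries were higher for all 3, by 5.41 ± 0.23, 4.90 ± 0.15 and 4.15 ± 0.13. Sox2, shared by stem cells and neural progenitors, rose from 17.4 and 13.9 TPM to 32.8 and 45 TPM, and stood at 120.1 and 127 TPM in day 3 aggregates.

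Genes of the forebrain and midbrain were divided, with 7 of 12 higher and 4 lower, and 9 of 21 list members too low to be tested. Pax5, a gene of the midbrain and hindbrain border, rose to 5.25 and 6.97 TPM from 0.253 and 0.0134 TPM. Emx2 and Lhx2 rose by 2.13 ± 0.19 and 1.95 ± 0.23. Otx2, which marks the epiblast and the anterior neural plate, fell from 7 and 6.84 TPM to 0.182 and 0.219 TPM (−2.72 ± 0.12), as did Hesx1, Dlx2 and Eomes. The 7 genes called higher in this list had low levels, at most 14.1 TPM (Lhx2) in a treated library. The Iroquois genes Irx1, Irx2, Irx3 and Irx5, which pattern the caudal neural plate, were all called higher, with Irx3 at 37.6 and 53.9 TPM against 16.3 and 12.7 TPM and Irx5 at 19.1 and 25.5 TPM against 3.98 and 3.25 TPM. Irx4 and Irx6 stayed under 1 TPM.

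Genes that divide the neural tube from back to belly rose in 11 of 15. Pax3, a dorsal progenitor factor, stood at 6.36 and 10.7 TPM in NPC WT and 0.18 and 0.214 TPM in EB day 8 WT. Its relative Pax7 stood at 7.11 and 9.25 TPM against 0.0721 and 0.0671 TPM. Wnt1, a roof plate signal, stood at 3.92 and 8.39 TPM against 0.0265 and 0 TPM. These 3 genes were higher in both treated libraries, by 2.96 ± 0.17, 3.09 ± 0.12 and 2.75 ± 0.21. The list as a whole summed to 132.6 and 188.3 TPM in NPC WT against 210.2 and 201.2 TPM in EB day 8 WT. The 3 genes of this list that fell were Msx1, Msx2 and Foxa2. Msx1, a BMP-responsive homeobox gene, fell from 122 and 109.5 TPM to 15.2 and 22.8 TPM. Its relative Msx2 fell from 64.9 and 71.5 TPM to 7.7 and 11.2 TPM. Foxa2, of floor plate and endoderm, had a difference of −0.76 ± 0.17.

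Proneural and Notch pathway genes rose in 20 of 21, where 43.4% of all compared genes did, and 0 were called lower (1 was not called, and the median was 2.73). Neurod2, Neurod6 and Atoh1 were too low to be tested. Hes5, the Notch effector of neural progenitors, stood at 55 and 92.1 TPM against 0.265 and 0 TPM. Nhlh2, a factor of newborn neurons, stood at 26.6 and 39 TPM against 0.024 and 0.0423 TPM. Both were near 0 in the untreated libraries and far higher in the treated ones, with differences of 6.0 ± 0.24 and 5.01 ± 0.15. They passed the filter through the treated libraries alone, so their direction is no separate evidence.

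Genes of differentiated neurons rose in 28 of 29, with a median of 2.40. The list summed to 572.6 and 786.0 TPM in NPC WT and to 66.6 and 69.0 TPM in EB day 8 WT. ESC WT (325.5 and 329.0 TPM) and day 3 aggregates (216.3 and 229.0 TPM) lay between them, so the sum does not measure neurons alone. Dcx, a microtubule protein of migrating neurons, stood at 23 and 27 TPM against 0.12 and 0.0635 TPM. Elavl3, a neuronal RNA-binding protein gene, stood at 22.1 and 30.0 TPM against 0.255 and 0.445 TPM, and Nefm, a neurofilament subunit, at 27.4 and 36 TPM against 0.868 and 0.794 TPM. Each difference was above 4 (4.57 ± 0.11, 4.31 ± 0.16 and 4.15 ± 0.14), with treated replicate 2 the higher of the pair in all 3. Slc32a1, the vesicular transporter for inhibitory transmitters, was the gene that fell, from 5.19 and 5.13 TPM to 1.32 and 1.55 TPM. Transcription factors of neuron classes rose in 15 of 19. Lhx1, which also marks mesoderm, stood at 53.1 and 62 TPM against 1.36 and 2.51 TPM, and Lhx5 at 12.5 and 16.1 TPM against 0.28 and 0.25 TPM. Onecut2 and Prdm8 rose by 3.18 ± 0.17 and 3.71 ± 0.16. The factors that fell were Tbx20 (−3.98 ± 0.14), Phox2a (−2.62 ± 0.15) and Evx1 (−1.72 ± 0.16).

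Neural crest and glial genes had no common direction, with 6 of 12 higher, 3 lower and 3 not called. Over all compared genes 43.4% were higher and 22.0% lower. Sox9 rose from 3.06 and 3.17 TPM to 18.3 and 18.7 TPM and Ngfr, the nerve growth factor receptor, from 1.53 and 1.53 TPM to 10.4 and 11.1 TPM. Snai2 and Twist1, shared with mesenchyme, fell, with differences of −1.86 ± 0.18 and −0.80 ± 0.11. Sox10, Gfap, S100b and Aqp4, markers of crest and glia, were below 1 TPM in all 4 libraries.

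Most compared genes of the list for intermediate and paraxial mesoderm rose along with neural ones. Of 11 compared, 9 were called higher, 0 lower and 2 neither, with a median of 2.52, while 8 of the 19 listed were too low to be tested. These 8 were Msgn1, Mesp1, Mesp2, Meox2, Pax1, Myf5, Myod1 and Ripply2, genes of early or paraxial mesoderm. The 11 compared therefore cover paraxial mesoderm only in part. Osr1, an early gene of the kidney lineage, stood at 55.5 and 35.9 TPM against 0.224 and 0.256 TPM. Wt1, of kidney and mesothelium, stood at 81.2 and 77.2 TPM against 3.45 and 3.65 TPM, and Foxc2, of somites, at 21.6 and 23 TPM against 0.183 and 0.123 TPM. All treated libraries lay above all untreated ones, by 5.20 ± 0.16, 4.14 ± 0.13 and 4.33 ± 0.10. Pax2, of kidney and midbrain, rose by 3.68 ± 0.17.

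Lateral mesoderm and heart genes were mixed, 11 higher and 8 lower of 26, where 43.4% and 22.0% of all compared genes were. Their median of 0.07 turned negative under both other scalings. Hand1, of extraembryonic and lateral mesoderm, stood at 560.4 and 589 TPM in EB day 8 WT and 1.73 and 1.04 TPM in NPC WT. Hand2 fell from 139.7 and 138 TPM to 27.2 and 22.8 TPM, and Nkx2-5 from 3.06 and 2.39 TPM to 0.162 and 0.145 TPM. Other members rose in the same libraries. Foxf1, of the mesoderm around the gut, stood at 169 and 116 TPM against 36.4 and 39.3 TPM (1.86 ± 0.20), Isl1, of second heart field and motor neurons, at 64.3 and 45.9 TPM against 15 and 15.4 TPM, and Tnnt2, cardiac troponin, at 15.6 and 11.8 TPM against 2.32 and 3.25 TPM. Hand1 and Foxf1, both genes of lateral mesoderm, thus moved in opposite directions.

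Endothelial genes were also divided, 7 higher, 4 lower and 7 not called of 18, near the shares of 43.4% and 22.0% over all compared genes. Their median of 0.07 turned negative under both other scalings. Cldn5, a junction protein, rose from 5.21 and 3.6 TPM to 25 and 23.6 TPM and Emcn from 3.57 and 2.92 TPM to 20.4 and 14.7 TPM. Kdr, the VEGF receptor, fell from 26.5 and 29.3 TPM to 16.4 and 12.2 TPM and Etv2, a factor of early endothelial and blood precursors, from 6.19 and 5.8 TPM to 1.09 and 1.11 TPM.

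Blood genes fell in 16 of 20, and 2 rose. Hbb-bh1, the embryonic beta-like globin, stood at 3868 and 3282 TPM in EB day 8 WT and 198 and 196 TPM in NPC WT. Hba-x, its alpha-like partner, stood at 1418 and 1353 TPM against 123 and 122 TPM. The treated libraries were several-fold lower for both globins (−4.17 ± 0.26 and −3.49 ± 0.10). Hbb-y, another embryonic globin, went the other way, from 112 and 114 TPM to 258 and 239 TPM, a call lost with a pseudocount of 0.1. The adult globin genes share near-identical copies, so how reads were divided among them is uncertain.

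Yolk sac endoderm genes for lipid and protein transport fell nearly throughout. Of 21 compared, 20 fell, 0 rose and 1 was not called, with a median of −3.84. Apob, the scaffold of lipoproteins, stood at 178 and 204 TPM in EB day 8 WT and 1.11 and 0.5 TPM in NPC WT. Spink1, Apoc2 and Rbp4 were given above. The list summed to 5573 and 5050 TPM without and 274 and 234 TPM with retinoic acid, and the liver gene Alb was listed at 0 in all 4 libraries. Transcription factors of endoderm fell by less, in 11 of 16 (median −0.69). Sox17 fell from 53.2 and 42.1 TPM to 11.3 and 14.8 TPM and Hnf4a from 19 and 18.3 TPM to 5.23 and 2.32 TPM. Foxa1 rose, from 10.3 and 8.83 TPM to 24 and 17.6 TPM.

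Trophoblast and surface ectoderm genes fell in 11 of 16 and rose in 3. Plac1, a placental gene, stood at 78.7 and 83.1 TPM against 0.952 and 2.24 TPM with retinoic acid. Krt8, a keratin of simple epithelium, stood at 621 and 569.7 TPM against 135 and 128 TPM, and its partner Krt18 at 629.9 and 587 TPM against 149.9 and 152 TPM. All 3 were lower in both treated libraries, with differences of −5.02 ± 0.19, −2.17 ± 0.10 and −2.0 ± 0.09. Krt7 rose from 0.98 and 0.774 TPM to 6.03 and 11.8 TPM and Gata2 from 14.1 and 20.1 TPM to 32.5 and 26.5 TPM, though the Gata2 call ended without either NPC WT replicate 1 or EB day 8 WT replicate 1.

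Genes of fibroblasts and of the extracellular matrix fell in 19 of 24, and collagen genes in 14 of 21. Postn, a matrix protein of mesenchyme, stood at 384 and 429 TPM in EB day 8 WT and 3.99 and 2.35 TPM in NPC WT. Col1a1, a chain of type I collagen, fell from 371 and 382 TPM to 15.6 and 14.1 TPM. The other chain, Col1a2, fell from 189 and 183 TPM to 7.57 and 4.38 TPM. Lum, a matrix proteoglycan, fell from 12.3 and 14.7 TPM to 0.0844 and 0.259 TPM. The cartilage collagen genes Col2a1 (from 4.75 and 4.19 TPM to 39.2 and 44.2 TPM) and Col11a1 (1.12 ± 0.17) rose instead. Col9a1 and Col9a3, also of cartilage, were compared and did not rise. The fibrillin gene Fbn2 (1.64 ± 0.17) and the mesenchyme factor Prrx1 (0.94 ± 0.14) rose too.

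Genes of the primitive streak and tail bud fell in 8 of 10. T (brachyury), the mesoderm regulator, stood at 16.4 and 12.3 TPM in EB day 8 WT and 0.171 and 0.26 TPM in NPC WT. Nodal, a signal of the early embryo, stood at 7.23 and 5.37 TPM against 0.632 and 0.578 TPM. Fgf8, a tail bud signal, was at 9.38 and 7.99 TPM without and listed at 0 in both libraries with retinoic acid. Day 3 aggregates, sampled before the treatment, had 28.5 and 14 TPM of T, 71.8 and 68.5 TPM of Nodal and 42.9 and 38.3 TPM of Fgf8. The 2 genes called higher were Lhx1, given above, and Sp5, whose call ended under both other scalings and without NPC WT replicate 2 or EB day 8 WT replicate 1.

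Pluripotency genes fell in 20 of 22 (median −2.53), and the rise was Sox2. Pou5f1, the core factor, stood at 88.3 and 69.8 TPM in EB day 8 WT and 0.804 and 1.48 TPM in NPC WT. Dppa5a, an RNA-binding protein of stem cells, stood at 342 and 279.9 TPM against 5.07 and 14.6 TPM, and Tdh, a threonine dehydrogenase of stem cells, at 40.5 and 41.1 TPM against 0.973 and 1.55 TPM. Untreated day 8 aggregates thus still held transcripts that treated ones nearly lacked, with differences of −5.23 ± 0.14, −4.99 ± 0.31 and −4.22 ± 0.09. Day 3 aggregates had 1274 and 1248 TPM of Pou5f1.

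Hypoxia and glycolysis genes fell in 20 of 20, with a median of −2.10. Slc2a3, a glucose transporter, stood at 1487 and 1512 TPM without and 49.5 and 46.3 TPM with retinoic acid. Pfkp, a phosphofructokinase of glycolysis, stood at 103 and 111 TPM against 6.77 and 6.32 TPM. Bnip3, a mitophagy gene that hypoxia induces, stood at 218 and 229.8 TPM against 23 and 16 TPM, and Ndrg1 at 44.6 and 44 TPM against 2.32 and 2.55 TPM. All 4 were lower in both treated libraries, with differences of −4.94 ± 0.08, −3.84 ± 0.12, −3.48 ± 0.15 and −3.72 ± 0.11. The list summed to 8910 and 8690 TPM in EB day 8 WT and to 1975 and 1723 TPM in NPC WT.

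Hedgehog pathway genes rose in 10 of 13 and 0 were called lower, although 1 was called lower under each of the other scalings. Gli1, a transcription factor that is itself a target of the pathway, stood at 80.5 and 52.5 TPM against 9.47 and 11.8 TPM (2.51 ± 0.21). Boc and Gas1, co-receptors, rose by 1.60 ± 0.13 and 1.74 ± 0.11. BMP ligand genes fell, Bmp4 from 135 and 139 TPM to 25.3 and 21.4 TPM and Bmp2, Bmp5 and Bmp6 with differences of −1.65, −1.88 and −1.93, while Bmp7 rose (1.38 ± 0.13). The BMP target Id3 rose from 164 and 161 TPM to 424 and 444 TPM and the receptor Bmpr1b from 0.0879 and 0.0607 TPM to 6.18 and 5.59 TPM. In all, 7 of 21 BMP genes rose and 10 fell.

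Wnt pathway genes rose in 12 and fell in 9 of 25, where 43.4% of all compared genes rose. Secreted Wnt binders of the Sfrp family rose, Sfrp1 from 20.0 and 23 TPM to 197 and 179.6 TPM, Sfrp2 from 5.46 and 5.64 TPM to 90.1 and 131 TPM and Sfrp5 from 2.16 and 1.69 TPM to 29.5 and 30.6 TPM. The inhibitors Dkk1 and Dkk3 fell (−3.18 ± 0.17 and −2.42 ± 0.12), as did the nuclear factor Tcf7 (−1.89 ± 0.09) and the ligand Wnt2 (−1.82 ± 0.10). Rspo1, which enhances Wnt signalling, rose by 3.19 ± 0.26. FGF pathway genes fell in 11 of 19 and rose in 6. Etv5, a target of the pathway, fell from 38.7 and 38.4 TPM to 6.6 and 5.93 TPM, and Fgf3, Fgf4 and Fgf8 fell, while 2 other ligands rose. Fgf9 reached 8.41 and 7.38 TPM from 0.398 and 0.202 TPM, and Fgf18 reached 5.95 and 7.62 TPM from 0.214 and 0.253 TPM.

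Cell cycle genes had calls in both directions. Of 28 compared 12 were called higher, 6 lower and 10 neither, near the shares of 43.4% and 22.0% over all compared genes. Their median of 0.14 turned negative under both other scalings. The D-type cyclin Ccnd2 stood apart, at 458 and 503 TPM with and 48 and 62.6 TPM without retinoic acid (3.11 ± 0.31, adjusted p = 3.5e-06). Its kinase partners Cdk6 and Cdk4 rose by 1.63 ± 0.16 and 0.86 ± 0.06, while Cdk1, the mitotic kinase, fell (−0.45 ± 0.06). Among Cdk inhibitors Cdkn1c and Cdkn1a rose by 0.89 ± 0.17 and 0.82 ± 0.07, and Cdkn2a fell (−1.66 ± 0.14). Targets of p53 rose in 10 of 15, led by the receptor gene Eda2r (1.15 ± 0.11), and Pmaip1 fell (−1.01 ± 0.10).

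Genes of the Polycomb complexes, which hold developmental genes silent and are the subject of the study, were called higher in 16 and lower in 3 of 20 for complex 1. For complex 2, 6 of 12 were higher and 2 lower, near the shares of 43.4% and 22.0% over all compared genes. Ring1, an E3 ligase of complex 1, stood at 48 and 47.4 TPM against 13.7 and 8.62 TPM, and Bmi1, a paralogue of Pcgf2, at 49.5 and 43.5 TPM against 13.2 and 10.9 TPM. Cbx7, the subunit of stem cells, fell from 37.1 and 38 TPM to 4.36 and 3.92 TPM, while Cbx2 rose from 32.1 and 29.2 TPM to 77.8 and 72.5 TPM. Pcgf5 fell from 59.6 and 64 TPM to 4.66 and 5.51 TPM, the largest fall of the list (−3.37 ± 0.14). In complex 2, Jarid2 and Ezh2 rose by 1.15 ± 0.10 and 0.60 ± 0.10, and Epop and Rbbp7 fell (−1.43 ± 0.12 and −1.25 ± 0.06). Under median-of-ratios scaling 12 of complex 1 and 3 of complex 2 were called higher, and 3 and 4 lower.

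Imprinted genes, expressed from 1 parental copy, fell in 9 of 19 and rose in 2. Phlda2, a growth restrainer of the placenta, stood at 290.2 and 266 TPM against 3.13 and 8.72 TPM with retinoic acid (−5.46 ± 0.28). Nnat and Sgce fell (−2.53 ± 0.13 and −1.73 ± 0.11), and Grb10 rose from 144 and 163 TPM to 398 and 382 TPM. Genes of the mitochondrial genome made up 7.38% to 8.29% of the transcripts in NPC WT and 7.67% to 9.59% in EB day 8 WT. Their median (−0.14) and that of ribosomal protein genes (−0.17) changed with the scaling. Rpl27 stood out among the latter, at 568 and 645 TPM against 138 and 106 TPM.

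**Figure D4:**
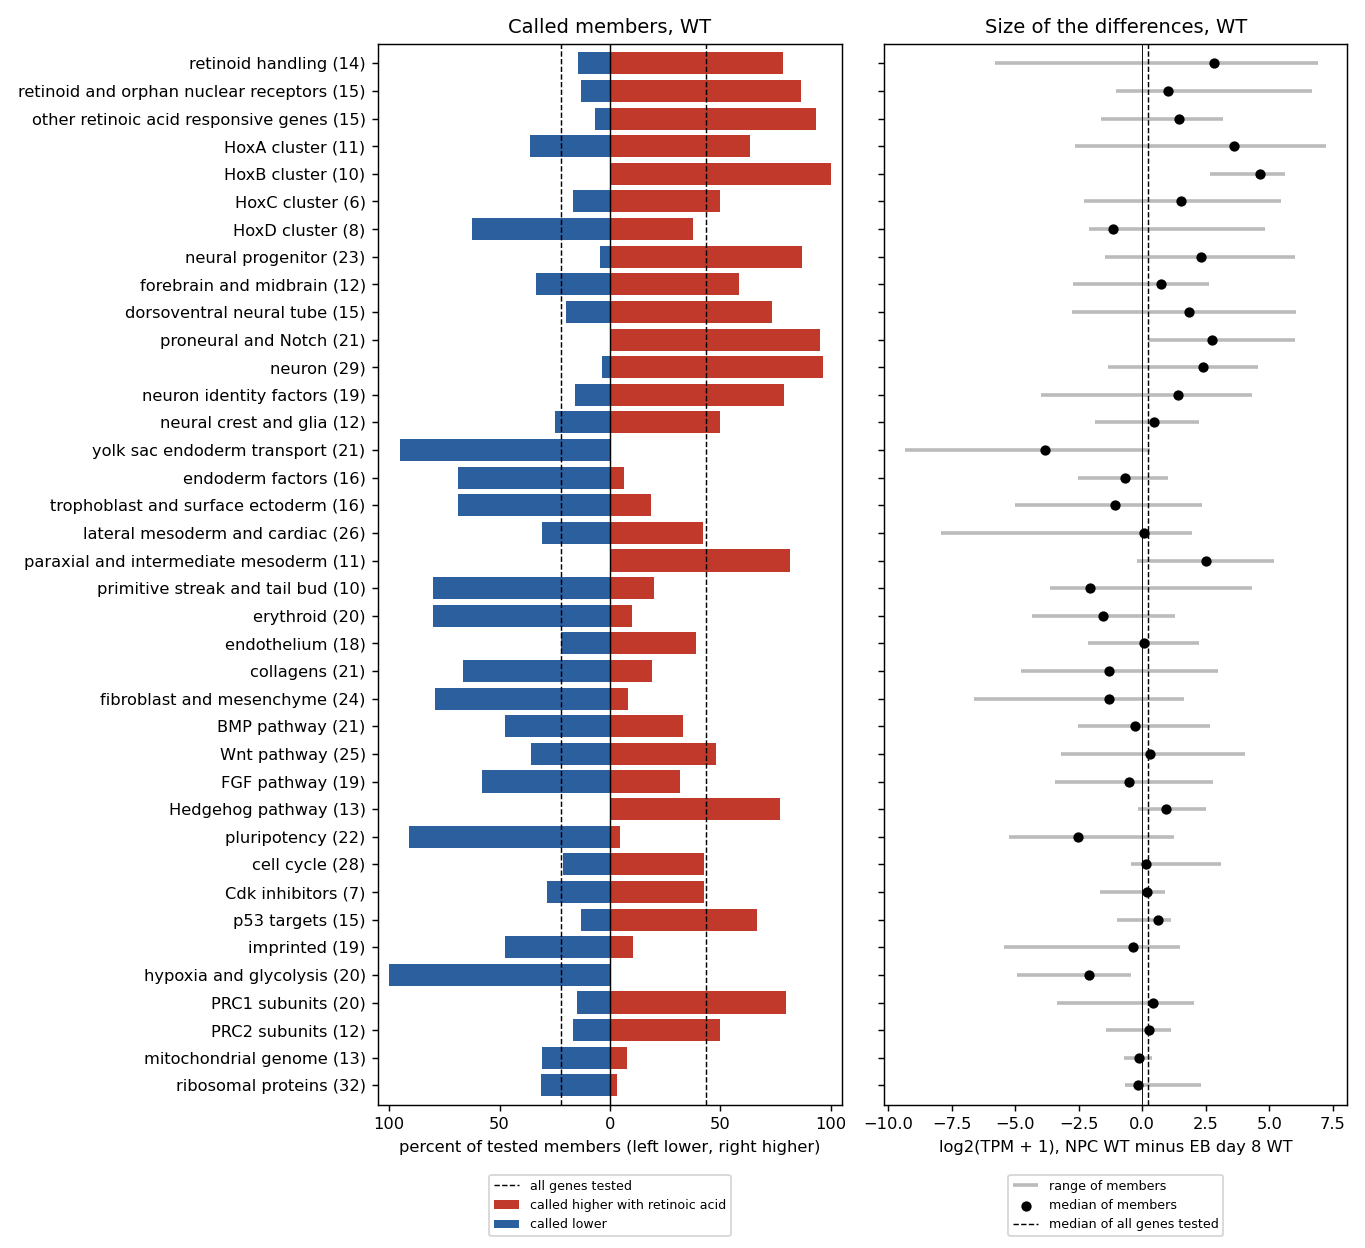
Gene lists with at least 5 compared members (their number in parentheses). Left, the percent of members called higher (right of 0) or lower (left of 0) in NPC WT, with dashed lines at 43.4% and 22.0% for all compared genes. Right, the median and range of the differences, with a dashed line at 0.22. Neuron, proneural and HoxB lists are nearly all higher, and yolk sac endoderm, pluripotency and hypoxia and glycolysis lists nearly all lower.

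The same treatment was compared in libraries labelled Pcgf2 KO. The Pcgf2 transcript itself was not lower in them, at 159 and 144 TPM in NPC against 123 and 117 TPM in NPC WT, and at 199 and 166 TPM in EB day 8 against 72.4 and 74.8 TPM in EB day 8 WT. A level over the whole gene cannot show an edited stretch, so it does not check the label. Of the 15485 genes, 5417 (35.0%) were called higher with retinoic acid and 4479 (28.9%) lower, and the difference between the genotypes passed for 9030 (58.3%). In Pcgf2 KO 1699 genes (11.0%) were higher and 1566 (10.1%) lower by at least 2-fold. The 15485 genes were filtered on the NPC WT and EB day 8 WT libraries alone. Genes that reached the filter's level only in Pcgf2 KO are therefore in none of these counts. With this filter 3528 genes were called at 2-fold or more in WT and 3265 in Pcgf2 KO. Without a filter the order was reversed, with 3549 in WT and 3895 in Pcgf2 KO. Of the genes higher by at least 2-fold, 388 were shared, which is 18.5% of the 2094 in WT and 22.8% of the 1699 in Pcgf2 KO. Of those lower by at least 2-fold, 524 were shared, 36.5% of the 1434 in WT and 33.5% of the 1566 in Pcgf2 KO. Opposite directions were found for 166 genes higher in WT, 7.93% of these and 10.6% of those lower in Pcgf2 KO, and for 186 lower in WT, 12.97% and 10.95% likewise.

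Of the 14 genes of retinoid handling 9 rose and 3 fell in Pcgf2 KO, with a median of 0.95 against 2.81 in WT. The falls were Rbp4, Adh5 and Crabp1, and Crabp1 had risen in WT (−5.15 for Pcgf2 KO minus WT, adjusted p = 5.2e-09). Cyp26a1 rose more there, from 16.4 and 15.9 TPM to 246 and 241 TPM (3.83, and 2.02 above the WT difference, adjusted p = 1.9e-04). Cyp26b1 rose less, to 85.5 and 83 TPM, and so did Rarb, to 13.6 and 13.7 TPM. Pcgf2 KO minus WT gave −2.06 and −2.23 for them (adjusted p = 5.3e-07 and 2.2e-06). Stra8 stood at 488 and 443 TPM in NPC Pcgf2 KO against 1.44 and 1.42 TPM untreated, a rise 4.41 above that of WT (adjusted p = 1.0e-06). Across the Hox clusters 14 of the 35 compared genes rose and 19 fell in Pcgf2 KO, where WT had 23 and 10. Over all compared genes 35.0% rose and 28.9% fell in Pcgf2 KO, and the Hox rises are near that share. Hoxd4 stood at 1.2 and 0.856 TPM with and 9.9 and 8.59 TPM without retinoic acid in Pcgf2 KO, the opposite direction to WT (adjusted p = 6.5e-09 for the difference).

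Neural lists diverged. Neural progenitor genes were called higher in 2 of 23 and lower in 9 in Pcgf2 KO, with the difference between genotypes passing for 22. Pax6 stood at 1.44 and 1.02 TPM with and 1.21 and 1.03 TPM without retinoic acid. It was not called there, and its difference between NPC and EB day 8 was smaller than in WT (adjusted p = 9.3e-08). Pluripotency genes were called higher in 12 and lower in 5 of 22, with Pou5f1 at 318 and 341 TPM in NPC Pcgf2 KO and 252 and 270.3 TPM in EB day 8 Pcgf2 KO. Trophoblast and surface ectoderm genes rose in 14 of 16, where 11 fell in WT. Krt8 stood at 935 and 1059 TPM with and 378 and 411 TPM without retinoic acid (1.33, adjusted p = 4.1e-09 for the difference from WT).

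Yolk sac endoderm transport genes fell in 17 of 21 in Pcgf2 KO (median −2.17), streak and tail bud genes in 9 of 10, collagens in 15 of 21 and fibroblast genes in 20 of 24. Hypoxia and glycolysis genes fell in 13 of 20 and rose in 4. Intermediate and paraxial mesoderm genes rose in 7 of 11. In the first 4 of these lists 2, 0, 1 and 0 genes rose. The difference between genotypes passed for 21 of 21 yolk sac genes, 16 of 20 hypoxia and glycolysis genes, 19 of 24 fibroblast genes and 13 of 21 collagens, against 58.3% of all compared genes, a share that the collagens are near. Spink1 fell there too, from 226 and 249.9 TPM, and was listed at 0 in both treated libraries labelled Pcgf2 KO.

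**Figure D5:**
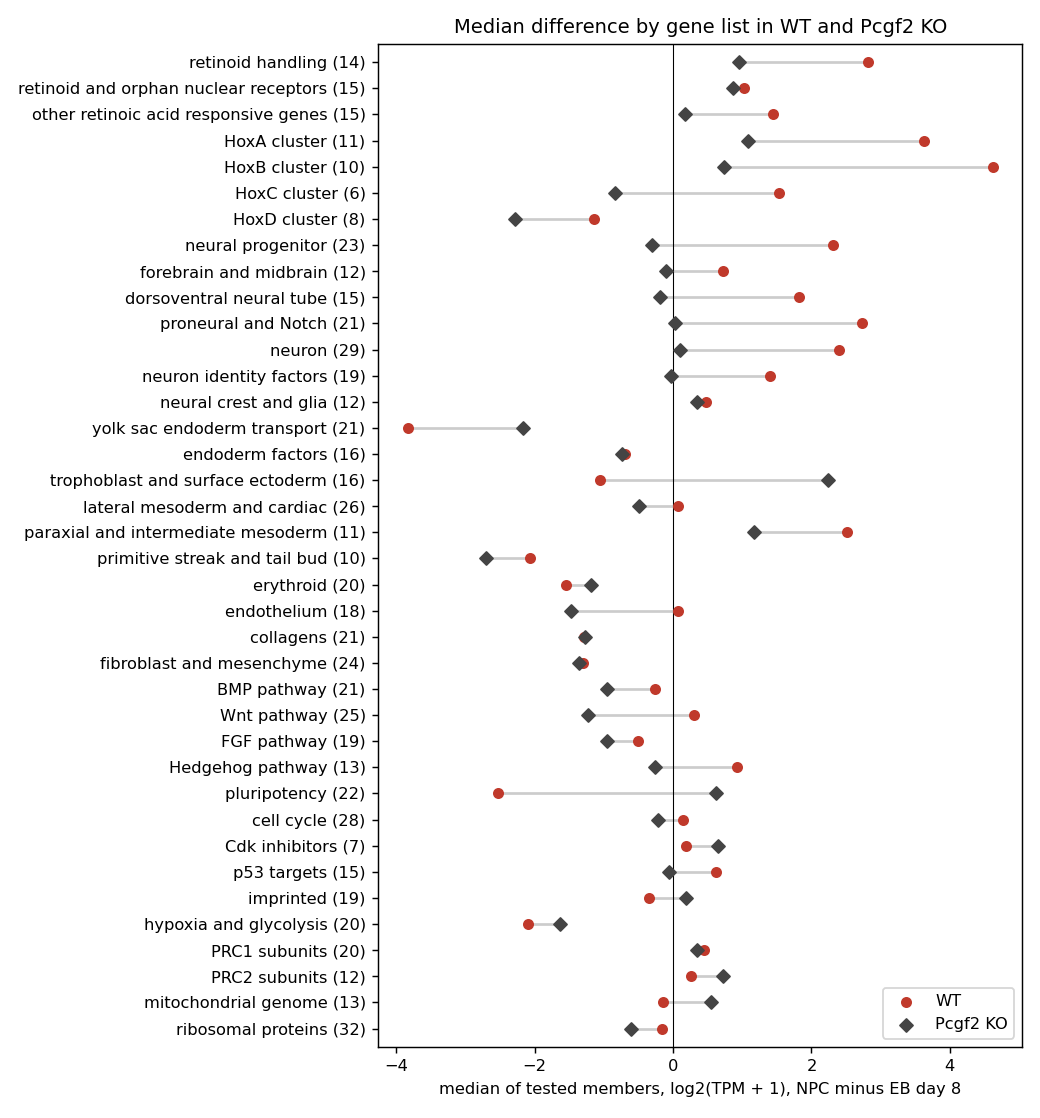
Median difference on the log2(TPM + 1) scale, NPC minus EB day 8, for gene lists with at least 5 compared members, in WT (circles) and in libraries labelled Pcgf2 KO (diamonds). Circles and diamonds are close for collagens, fibroblast and endoderm lists and far apart for HoxB, neuron, pluripotency and trophoblast lists.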

How the data were processed

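RNA-seq of total RNA was analysed from a table of 16 libraries, covering ESC, EB day 3, EB day 8 and NPC of both genotypes with 2 libraries each. The authors deposited TPM per gene. kallisto and mm10 are named in the submitters' processing notes. Their versions, the annotation and the summing to genes are not stated there. TPM keep no counts, so depth is unknown. A second deposited table, without EB day 8, was not used here. Values were taken as log2(TPM + 1) and fitted with limma 3.58.1 in R 4.3.3 (lmFit, eBayes with trend), 1 mean per group, spread shared by all 16 libraries, two-sided, adjusted over 15485 genes. The WT contrast, the Pcgf2 KO contrast and their difference came from 1 fit. Only the WT contrast was checked on simulated data. The simulated noise was independent between libraries, so the check does not show how separate cultures would vary. Genes were named by rule: the 12 largest rises and falls, up to 4 called members per direction of each of 41 lists, and all retinoid, receptor, Hox, caudal, Iroquois and Y-linked genes (other names were chosen after their values were seen). Members and lists were chosen with earlier results of these data known. Values of some listed genes are not reported here. Symbols matched RefSeq GRCm38.p6 for 29980 of 35245 genes. Figures used matplotlib 3.10.9.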

Additional observations from a re-analysis of the deposited data

Results flagged for a closer look

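The difference between genotypes, Pcgf2 KO minus WT for the same comparison of NPC with EB day 8, passed limma's test for 9030 genes. That is 58.3% of the genes compared. It also passed for all 24 genes with the largest WT changes, which are listed here for that reason. These 24 were chosen by their WT change, which is itself subtracted in this difference. Selection thus favours a pass, and the count of 24 is no separate evidence. A value below 0 means a smaller rise or a fall in Pcgf2 KO.

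Among the genes that rose in WT, the differences on the log2(TPM + 1) scale were −3.72 for Hoxa5, −4.06 for Hoxa4, −3.02 for Hoxa3, −5.06 for Hoxb9 and −5.68 for Hoxc5. They were −2.06 for Cyp26b1, −7.12 for Nr2f1, −6.96 for Barx1 and −6.08 for Dbx1. For the neural genes Hes5, Neurog1 and Sst they were −5.84, −4.14 and −4.86.

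Among the genes that fell in WT, the differences were 1.43 for Spink1, 2.05 for Apoc2, 2.59 for Apob and 3.68 for Apoa2. They were 3.55 for Rbp4, 2.98 for Cubn and 3.23 for Ctsh. For genes of mesoderm, matrix and blood they were 4.98 for Hand1, 4.54 for Postn, 1.43 for Acta2, 4.20 for Srgn and 5.74 for Car4. Dbx1 was listed at 0 in both libraries of EB day 8 WT and in both of NPC Pcgf2 KO, and Neurog1 at 0 in both of EB day 8 WT, so their fitted values are no bound on the size. Spink1 was listed at 0 in both libraries of NPC Pcgf2 KO and in 1 of NPC WT, so both treated groups were at the floor and its value does not measure a smaller fall. Its untreated level was 226 and 249.9 TPM in Pcgf2 KO and 875 and 687 TPM in WT. Marker sums were also lower in EB day 8 Pcgf2 KO than in EB day 8 WT. Yolk sac endoderm markers summed to 134.8 to 135.2 TPM against 677 to 683 TPM. Fibroblast markers summed to 137.4 to 151.7 TPM against 1030 to 1080 TPM. In NPC Pcgf2 KO these sums were 9.93 to 10.15 TPM and 3.06 to 3.45 TPM, below those of NPC WT. A value above 0 therefore need not mean more transcript left after treatment. Pcgf2 KO and WT also differ in Y-linked transcripts in NPC, whose part in these differences was not tested.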

How the results depend on the processing

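Of 266 named genes compared in WT (244 with a filter at 5 TPM), none of those fitted changed direction under the 12 alternatives (scaling, pseudocount, filter, fewer groups, replicate block, leaving out a library), and all 24 largest changes stayed called. Some small changes lost their call, among them Irx1 with a pseudocount of 0.1 and those named beside their values, and Hoxc9 gained one under both other scalings. Calls in WT numbered from 8157 (of 11908 genes, filter at 5 TPM) to 11263 (of 24887, no filter), against 10137 of 15485. These ends are of unlike numbers of genes, and the setting with the most calls had a lower share called than the main one. With a pseudocount of 5 the genes called at 2-fold or more numbered 1763 in WT and 1843 in Pcgf2 KO. For the difference between genotypes there were 2721. Without a filter 3549 genes in WT and 3895 in Pcgf2 KO were called at 2-fold or more, against 3528 and 3265 in the main setting. All calls without a filter numbered 11263 in WT and 11878 in Pcgf2 KO, against 10137 and 9896. The order of the genotypes was thus reversed in each case. Some list medians changed sign. Under median-of-ratios scaling these were lateral mesoderm −0.09, endothelium −0.15, cell cycle −0.11 and Cdk inhibitors −0.054. Under quantile normalization they were −0.05, −0.12, −0.015 and −0.052, with 0.10 for the mitochondrial genome and 0.000 for ribosomal proteins. Without a filter, which adds genes near 0, HoxC gave −0.29 against 1.53, FGF 0.061 against −0.51 and lateral mesoderm −0.007. At 5 TPM, which leaves fewer genes, HoxD gave 0.62 against −1.15. Leaving out 1 library gave medians of −0.017 (without EB day 8 WT replicate 1) to 0.191 for lateral mesoderm, −0.042 (without NPC WT replicate 1) to 0.174 for endothelium and −0.413 to 0.117 (without NPC WT replicate 2) for BMP. The mitochondrial genome gave 0.082 without EB day 8 WT replicate 2. Same-numbered libraries did not deviate together (correlation −0.03 in WT and 0.01 in Pcgf2 KO). With the number as a replicate block 9960 genes were called in WT. The cause of these changes was not tested.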

Other observations

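Day 3 aggregates, sampled before retinoic acid was added, enter no comparison here, and their values are given beside those of day 8. Several genes that were abundant in both day 8 groups were low on day 3. Igf2, an imprinted growth factor, stood at 5.82 and 7.81 TPM on day 3, 3290.0 and 3309 TPM in EB day 8 WT and 2771 and 2409 TPM in NPC WT. Cdkn1c, an imprinted cell cycle inhibitor, stood at 32.9 and 35.4 TPM on day 3, 313 and 290.0 TPM in EB day 8 WT and 531 and 588 TPM in NPC WT. Others were abundant on day 3 and low in both later groups. Fgf5, a marker of the primed epiblast, stood at 111 and 114 TPM on day 3, 1.75 and 1.17 TPM in EB day 8 WT and 1.43 and 2.21 TPM in NPC WT. Otx2, of the anterior neural plate, stood at 125 and 149.5 TPM on day 3, 7 and 6.84 TPM in EB day 8 WT and 0.182 and 0.219 TPM in NPC WT. Ina, a neurofilament gene, was at 56.5 and 59.6 TPM on day 3 and 32.1 and 43.2 TPM in NPC WT, above the 1.86 and 1.81 TPM of EB day 8 WT. These genes were chosen after their values were seen.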
